A study of Mus musculus with 16 samples.

Results

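The AP-1 family is described here by 9 genes of transcription factor subunits: Fos, Fosb, Fosl1, Fosl2, Jun, Junb, Jund, Atf3 and Maff. They are a list of names with no threshold on a measured value, drawn up with earlier results of these data known. All 9 were found among the 23329 genes of the deposited count table, and 8 of them passed the filter on low counts. Fosl1 did not pass, with 0 to 3 counts per library and 26 counts in all 16 libraries. Its gene also overlaps Ccdc85b, so its few counts are uncertain. The study sequenced polyadenylated RNA of BetaTC6, an insulinoma-derived mouse line of β-cell type with a C57BL/6 strain label. The cells grew for 3 days, were held in Krebs Ringer buffer without glucose, and were then stimulated for 30 min with 20 mM glucose. All 16 libraries therefore share the glucose stimulus, and none was taken without it. The 4 groups of 4 libraries were wild-type cells with DMSO (WT-Con), wild-type cells with ivermectin (WT-IVM), cells labelled P2ry1 knockout with DMSO (P2ry1KO-Con) and cells labelled P2ry1 knockout with ivermectin (P2ry1KO-IVM). Ivermectin is an antiparasitic drug whose concentration is not given in the sources used here, and P2ry1 encodes a purinergic G protein-coupled receptor. Neither the number of clones behind the knockout line nor whether the 4 replicates came from separate cultures is given, so p-values measure only the spread between these libraries, which may be technical.

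AP-1 is a dimer of basic leucine zipper proteins that binds short DNA elements and switches target genes. Fos-type subunits (Fos, Fosb, Fosl1, Fosl2) must pair with a partner, most often a Jun-type subunit (Jun, Junb, Jund), while Jun-type subunits can also pair with each other. Fos, Fosb, Jun, Junb, Atf3 and Maff are immediate-early genes, whose transcription starts within minutes of calcium, cyclic AMP or MAP kinase signals without new protein synthesis. In β-cells, glucose raises such signals by closing K-ATP channels and letting calcium in. Atf3 is an ATF-type partner best known as a stress gene, and Maff is a small Maf protein that has no activation domain.

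Promoter stretches of 4 genes are shown because these are the genes with at least 1 change past the threshold below, and because the cyclic AMP and calcium response element (CRE) is a known control element of immediate-early genes. Each stretch is the 150 bases before a transcript start in RefSeq on GRCm38.p6, the assembly known as mm10, printed 5′ to 3′ on the gene's strand. Capitals mark matches to the full CRE (TGACGTCA), its core (TGACG or its reverse complement CGTCA) or the TATA box (TATAAA).
Fos, chr12:85473740-85473889, plus strand: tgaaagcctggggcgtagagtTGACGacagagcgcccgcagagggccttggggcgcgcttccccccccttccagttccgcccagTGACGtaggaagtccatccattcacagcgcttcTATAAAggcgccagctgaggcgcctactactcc
Junb, chr8:84978749-84978898, minus strand: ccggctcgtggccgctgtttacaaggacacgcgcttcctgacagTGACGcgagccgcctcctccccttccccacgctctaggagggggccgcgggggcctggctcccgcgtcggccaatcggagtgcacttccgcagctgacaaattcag
Fosl2, chr5:32136322-32136471, plus strand: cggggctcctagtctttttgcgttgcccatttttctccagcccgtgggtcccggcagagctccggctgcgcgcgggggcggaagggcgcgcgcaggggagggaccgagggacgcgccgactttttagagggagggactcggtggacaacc
Maff, chr15:79347370-79347519, plus strand: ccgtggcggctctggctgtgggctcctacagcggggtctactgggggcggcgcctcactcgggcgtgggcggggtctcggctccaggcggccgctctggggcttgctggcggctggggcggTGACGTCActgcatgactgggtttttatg

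Promoters were found in the RefSeq table for 8 of the 9 genes, without Fosl1. In the Fos stretch the CRE core lies 129 to 125 and again 66 to 62 bases before the start, and the TATA box lies 33 to 28 bases before it. Junb holds the core 106 to 102 bases before its start. Of 3 Maff starts in the table, the one shown was picked because it holds the full CRE, 29 to 22 bases before it, and the core counts again inside it. Of the other two Maff windows, one holds the core and the other holds neither. The Fosl2 stretch holds none of these letters. Over the 250 bases before each start, on both strands, the core was in 17.8% of 32851 promoter windows of the table. It was in windows of 5 of the 8 matched genes: Atf3, Fos, Fosb, Junb and Maff. The shares count windows and the family numbers count genes with any such window, so Maff, with 3 windows, had more chances. The full CRE was in 1.55% of windows and in this family in Maff, and the TATA box was in 12.4% and in this family in Fos. The AP-1 element TGACTCA was in 4.46% of windows and the CArG box in 1.47%, and neither was in a window of the 8 genes. Only exact matches within the 250 bases were sought, so variant forms and sites farther from the start were not looked for. A match is a description of letters and not of binding.

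The libraries held 893088 to 2013242 counts, and the 4 lowest totals were those of the WT-Con group. P2ry1, the targeted gene, stood at 85.5 to 106 CPM (counts scaled to library size) in wild-type libraries and at 72.8 to 94.8 CPM in libraries labelled knockout, so its transcript level did not separate the labels, and a gene-level count cannot show a small edit. Of 20 β-cell marker genes, 20 averaged at least 10 CPM in both wild-type groups and 19 in both knockout-labelled groups. Hepatocyte transcripts were also read. The list used has 30 hepatocyte genes, none of them at 0 in every library, and includes Ttr, which α-cells also express, at 543 to 949 CPM over the 4 groups. Without Ttr and Rbp4, which islet cell lists also hold, the other 28 summed to 966 to 2663 CPM in WT-Con, 249 to 544 CPM in WT-IVM, 88.3 to 196 CPM in P2ry1KO-Con and 126 to 424 CPM in P2ry1KO-IVM. The 3 δ-cell marker genes summed to 265 to 335 CPM in wild-type libraries and to 65.7 to 93.4 CPM in knockout-labelled ones, and the part of this difference in the comparisons between lines was not tested. The summed level of 10 acinar genes reached at most 3.06 CPM, with Cpa1, Cela3b, Prss1, Prss2 and Amy2a5 at 0 in every library. In bulk RNA, fewer cells of a type and less RNA per cell cannot be told apart.

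Compared per transcript length, in TPM, the family was led by Jund in each group. In WT-Con, Jund stood at 263 ± 22.9 TPM (SD, n = 4), Junb at 71.9 ± 5.17 and Jun at 62.1 ± 5.07. Junb and Jun overlapped in range, and both lay apart from Jund. Maff followed at 43.1 ± 4.63 TPM, Fos at 26.3 ± 5.14 and Fosb at 13.0 ± 3.02, and these neighbours did not overlap in range. Atf3 (8.98 ± 4.05 TPM) overlapped both Fosb and Fosl2 (8.48 ± 1.56 TPM), and Fosl1 was last at 1.51 ± 1.34 TPM. The order was the same in both knockout-labelled groups. In WT-IVM, Fos stood at 63.6 ± 17.3 TPM and overlapped Maff at 62.8 ± 15.9 TPM.

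The summed level of the 9 genes was 498 ± 26.4 TPM in WT-Con (SD, n = 4), 671 ± 69.5 TPM in WT-IVM, 487 ± 43.0 TPM in P2ry1KO-Con and 518 ± 29.0 TPM in P2ry1KO-IVM. The 4 WT-IVM sums (584 to 729 TPM) lay above all 4 WT-Con sums (474 to 534 TPM). Jund made up 52.7% ± 1.98 of the sum in WT-Con, 42.7% ± 4.58 in WT-IVM, 50.4% ± 1.77 in P2ry1KO-Con and 47.6% ± 4.02 in P2ry1KO-IVM. The Fos-type subunits together made up 9.91% ± 1.04, 14.6% ± 2.42, 10.5% ± 0.923 and 11.6% ± 1.53 of it in the same order of groups. These sums are a description, and no test was made on them.

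**Figure D1:**
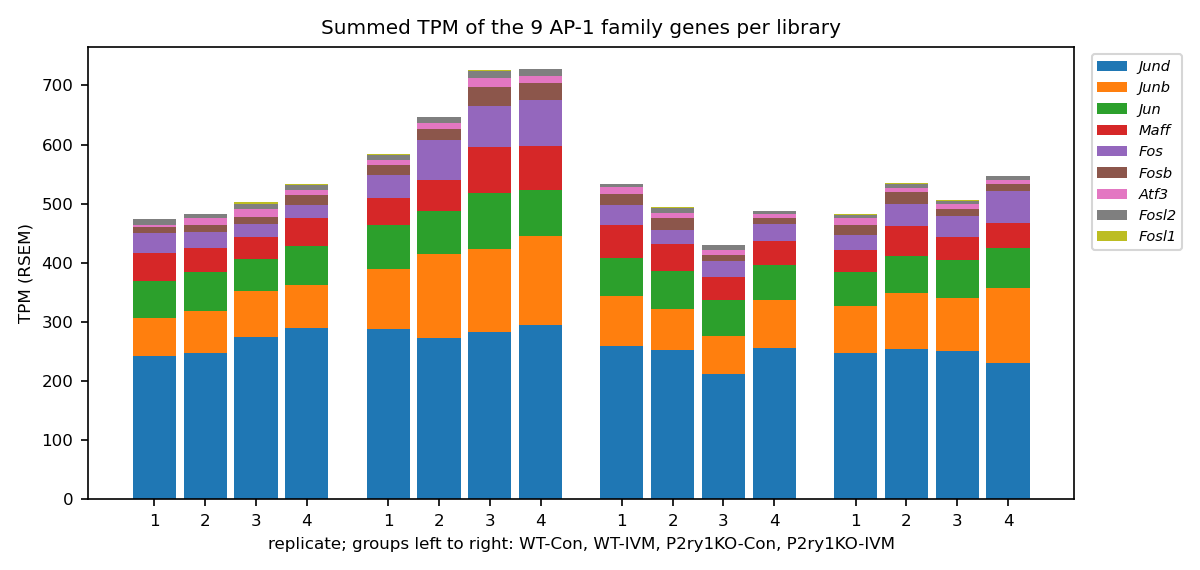
Summed TPM (vertical axis) of the 9 AP-1 family genes in each of the 16 libraries, with groups from left to right WT-Con, WT-IVM, P2ry1KO-Con and P2ry1KO-IVM and colours for genes. The 4 WT-IVM bars reach 584 to 729 TPM, and the Jund segment stays the tallest in every library.

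Ivermectin was compared with DMSO in wild-type cells, to ask which transcripts it altered under high glucose. Fos and Junb rose, and the other 6 tested genes had positive values that did not pass the test. The test was edgeR's quasi-likelihood test, with Benjamini-Hochberg adjustment over all 10820 tested genes and a threshold of 0.05. Among all tested genes, 0.0555% were called higher and 0.545% lower, beside 2 of 8 AP-1 genes called higher and 0 lower. The median log2 change of the 8 genes was 0.46, and that of all tested genes was 0.0003. Group ranges did not overlap for 3 of the 8 genes, Fos, Jun and Junb, all higher with ivermectin. Such a separation was found in 1.40% of all tested genes for higher levels and in 1.94% for lower levels.

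Among the Fos-type subunits, Fos itself stood at 43.9, 33.3, 28.9 and 27.9 CPM in WT-Con replicates 1 to 4 and at 47.0, 86.1, 92.1 and 106 CPM in WT-IVM. Every WT-IVM library was above every WT-Con library, but WT-IVM replicate 1 was only just above the highest of them. The log2 change of Fos was 1.28 (SE 0.227, edgeR adjusted p = 0.000616). Fosb, a close relative with the same partners, stood at 27.0, 27.4, 28.9 and 40.9 CPM in WT-Con and at 38.5, 45.5, 76.9 and 75.8 CPM in WT-IVM. The highest WT-Con library overlapped the lowest WT-IVM library, and the log2 change of 0.87 (SE 0.234) had an edgeR adjusted p of 0.109. Fosl2, which encodes the Fra-2 subunit, stood at 39.4, 23.5, 33.1 and 33.4 CPM in WT-Con and at 31.5, 37.8, 47.7 and 45.2 CPM in WT-IVM. The Fosl2 groups overlapped, and its log2 change of 0.31 had a 95% interval of -0.04 to 0.66 (edgeR adjusted p = 0.988).

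Among the Jun-type subunits, Junb, which can oppose Jun in many settings, stood at 74.2, 77.3, 86.6 and 77.1 CPM in WT-Con and at 108, 158, 158 and 178 CPM in WT-IVM. The groups were apart, and the log2 change of Junb was 0.91 (SE 0.149, edgeR adjusted p = 0.000192). Jun stood at 130, 127, 111 and 128 CPM in WT-Con and at 142, 151, 193 and 167 CPM in WT-IVM. These groups did not overlap either, but the log2 change of 0.38 (SE 0.0975) missed the threshold with an edgeR adjusted p of 0.0599. Jund, the subunit that resting cells already hold, ranged from 432 to 508 CPM in WT-Con and from 496 to 565 CPM in WT-IVM. Its log2 change was 0.14, with a 95% interval of -0.0014 to 0.28 (edgeR adjusted p = 0.96).

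Of the other partners, Maff stood at 51.7, 43.0, 40.6 and 49.2 CPM in WT-Con and at 47.0, 57.6, 85.5 and 85.7 CPM in WT-IVM. WT-IVM replicate 1 lay inside the WT-Con range, and the log2 change of 0.54 (SE 0.17) had an edgeR adjusted p of 0.332. Atf3 was read with 4 to 14 counts per WT-Con library and 19 to 27 per WT-IVM library, or 4.50 to 15.0 and 10.5 to 17.9 CPM. At that depth its log2 change of 0.35 was bounded between -0.24 and 0.94 (95% interval, edgeR adjusted p = 0.9998).

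WT-IVM replicate 1 was the lowest library of its group for all 8 tested genes. It also had the most Alb, the leading hepatocyte transcript, at 172 CPM beside 57.7 to 112 CPM in the other 3 libraries of the group. The library with the most Alb did not hold the same place in the other groups. In WT-Con, replicate 1 (Alb at 923 CPM) was the highest library for 4 of the 8 genes and the lowest for 3. In P2ry1KO-Con, replicate 1 (52.3 CPM) was the highest for 7 and the lowest for 0. In P2ry1KO-IVM, replicate 1 (144 CPM) was the highest for 1 and the lowest for 4. Without WT-IVM replicate 1, 5 of the 8 genes passed the threshold (Fos, Junb, Fosb, Jun and Maff), and without WT-IVM replicate 2 the number was 4. Hepatocyte transcripts moved in the opposite direction in this comparison: 25 of 29 tested genes of that list fell, and Alb went from 328 to 923 CPM in WT-Con to 57.7 to 172 CPM in WT-IVM. With the log2 level of Alb as a covariate, the log2 change was 0.77 for Fos and 0.58 for Junb, and no AP-1 gene passed the threshold (edgeR adjusted p = 0.9999 for both). The part of liver transcripts in these results was not tested further, since their level and the groups move together. Against a change of at least 1.5-fold, neither Fos nor Junb passed (edgeR adjusted p = 0.0946 and 0.839).

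**Figure D2:**
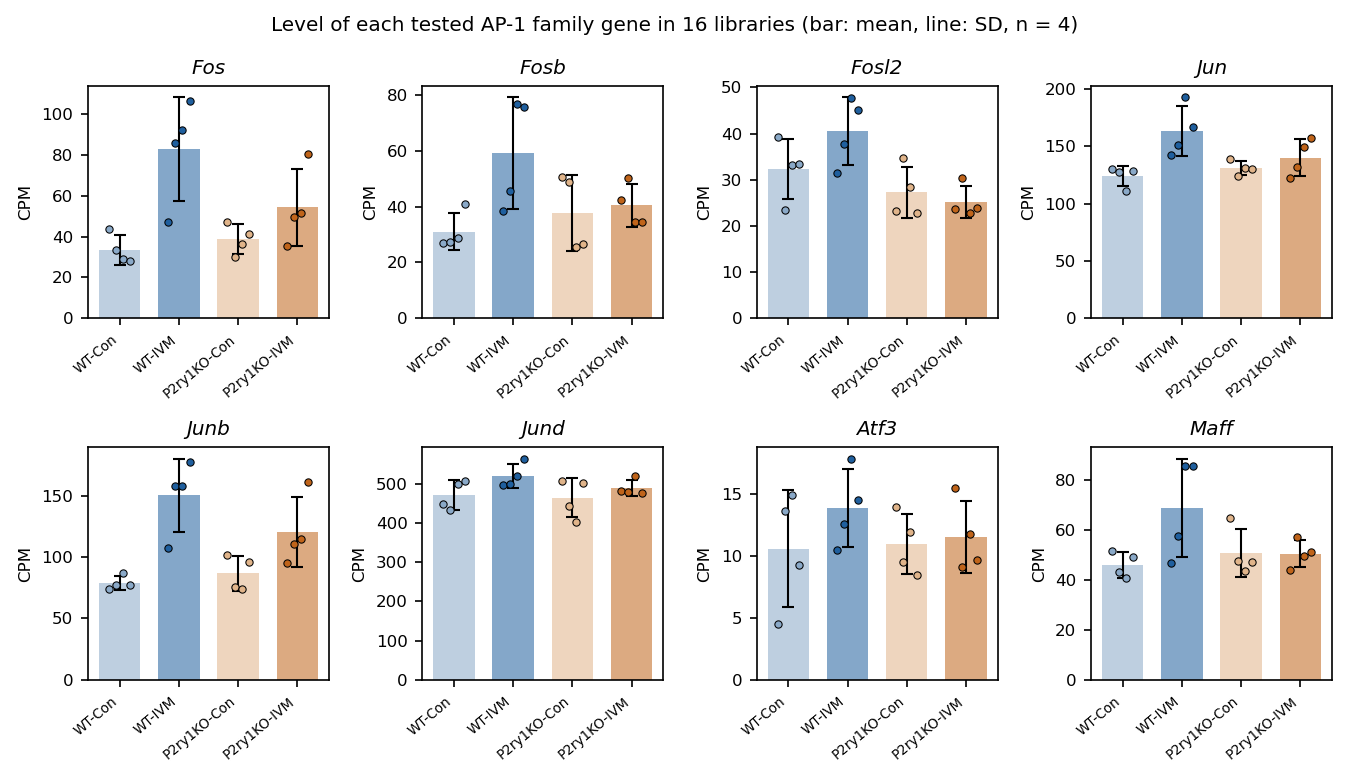
CPM (vertical axes, from 0) of the 8 tested genes in the 4 groups, with points for libraries, bars for means and lines for the SD (n = 4). The Fos, Junb and Jun points of WT-IVM lie above all points of WT-Con, and the lowest WT-IVM point of each gene is replicate 1.

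The same treatment in cells labelled P2ry1 knockout gave smaller values. Of the 8 tested genes, 0 passed the threshold by edgeR and 0 by DESeq2, while 2 (Fos and Junb) had an unadjusted p under 0.05, as had 820 of all 10820 tested genes. Here 0% of all tested genes were called higher and 0% lower. Their median log2 change was 0.09, beside 0.0013 for all tested genes, with 6 positive and 2 negative values. Group ranges overlapped for each of the 8, whereas 1.89% of all tested genes had higher and 1.80% had lower ranges that did not overlap.

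Fos stood at 47.0, 30.1, 36.4 and 41.3 CPM in P2ry1KO-Con replicates 1 to 4 and at 35.4, 49.7, 51.6 and 80.2 CPM in P2ry1KO-IVM. The lowest treated library lay inside the vehicle range and the other 3 lay above it, replicate 4 by the widest gap. The log2 change of Fos was 0.47 (SE 0.201, edgeR adjusted p = 0.645). Junb stood at 102, 75.2, 73.8 and 95.9 CPM in P2ry1KO-Con and at 94.9, 110, 114 and 161 CPM in P2ry1KO-IVM. Again 3 treated libraries were above all vehicle libraries, and the log2 change of 0.47 (SE 0.132) had an edgeR adjusted p of 0.594. Jun stood at 139, 124, 131 and 130 CPM in P2ry1KO-Con and at 122, 132, 149 and 157 CPM in P2ry1KO-IVM, with replicate 4 highest as it was for Fos and Junb. Its log2 change was 0.09, with a 95% interval of -0.09 to 0.27.

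The other Fos-type subunits showed no common direction. Fosb stood at 50.5, 48.7, 25.4 and 26.5 CPM in P2ry1KO-Con and at 42.4, 50.3, 34.6 and 34.3 CPM in P2ry1KO-IVM. The vehicle libraries thus fell into a high and a low pair, and the log2 change of 0.12 was bounded between -0.30 and 0.53. Fosl2 stood at 23.2, 34.6, 28.4 and 22.8 CPM in P2ry1KO-Con and at 23.6, 30.3, 22.9 and 23.9 CPM in P2ry1KO-IVM, a log2 change of -0.12 (95% interval -0.46 to 0.22). Maff stood at 65.1, 47.7, 43.4 and 47.1 CPM in P2ry1KO-Con and at 44.0, 57.1, 49.7 and 51.1 CPM in P2ry1KO-IVM. The highest Maff library of this line was a vehicle one, and the log2 change was -0.0021 (95% interval -0.31 to 0.31). Jund gave 0.08 (95% interval -0.05 to 0.21) and Atf3 0.09 (95% interval -0.42 to 0.61). P2ry1KO-Con replicate 1 was the highest library of its group for 7 of the 8 genes, all but Fosl2. In that line 28 of 29 tested hepatocyte genes had a positive log2 change (median 0.65), and 0 passed the threshold. Of the 29, 6 had an unadjusted p under 0.05. With Alb as a covariate the log2 change was 0.58 for Fos and 0.54 for Junb, and 0 of the 8 AP-1 genes passed by edgeR.

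Whether the response differed between the lines was tested directly, as the difference between the ivermectin changes. No AP-1 gene passed (0 of 8 by edgeR and 0 by DESeq2), although 5 had an unadjusted p under 0.05: Fos, Fosb, Maff, Jun and Junb. Of all 10820 tested genes 553 had one. Among all tested genes 0.213% were called with a more positive change in the knockout-labelled line and 0.00924% with a more negative one. The difference was negative for 8 of 8 genes, with a median of -0.44 beside 0.0015 for all tested genes. For Fos it was -0.81 (95% interval -1.43 to -0.18, edgeR adjusted p = 0.847). Fosb gave -0.75 (95% interval -1.39 to -0.11) and Maff -0.54 (95% interval -1.004 to -0.076), both with an edgeR adjusted p of 0.94. Junb gave -0.44 (95% interval -0.85 to -0.03), Fosl2 -0.43 (-0.92 to 0.06) and Jun -0.29 (-0.56 to -0.02). Atf3 and Jund, at -0.26 (95% interval -1.04 to 0.53) and -0.06 (-0.25 to 0.13), had the values nearest to 0. A larger response in wild-type cells was therefore not shown for any of the 8 genes. Hepatocyte genes gave the opposite sign in this test, with 15 of 29 called and a median of 3.14. With Alb as a covariate the difference was -0.19 for Fos, -0.32 for Fosb, -0.31 for Maff, -0.045 for Junb, -0.13 for Jun and 0.022 for Fosl2, and no AP-1 gene passed (0 of 8 by edgeR).

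**Figure D3:**
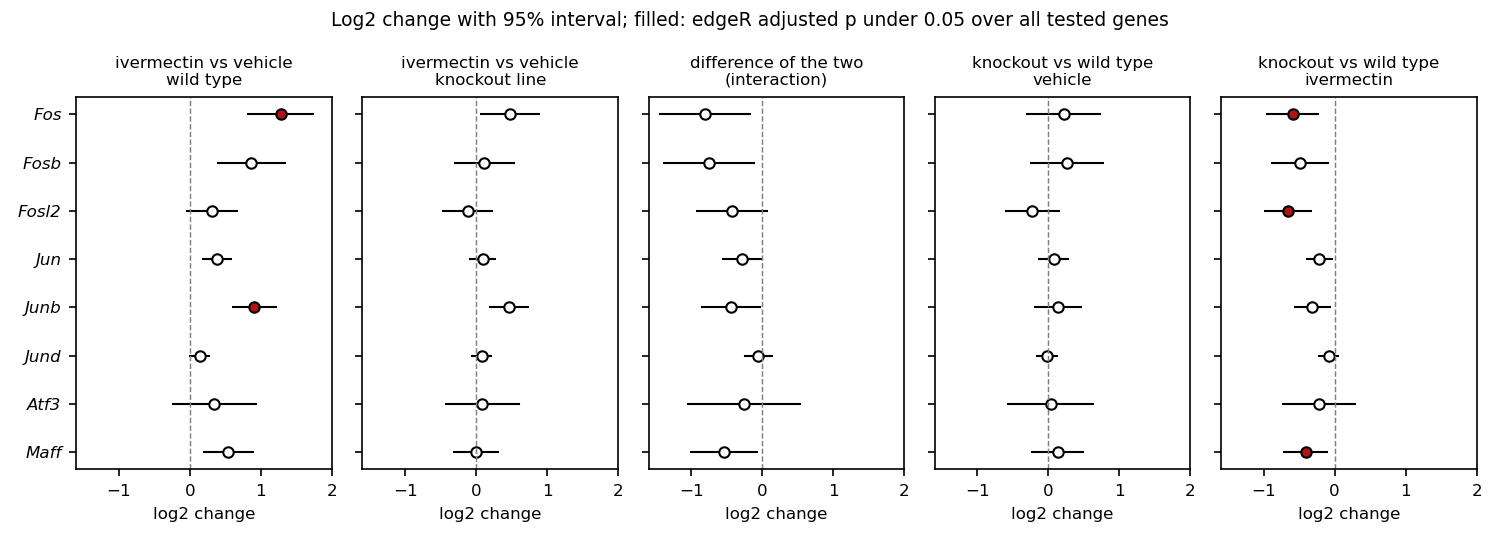
Log2 change (horizontal axis) of the 8 tested genes in 5 comparisons, with lines for 95% intervals and filled points for an edgeR adjusted p under 0.05. Filled points are Fos and Junb for ivermectin in wild type, and Fos, Fosl2 and Maff for knockout against wild type with ivermectin.

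The lines were also compared under each treatment. With vehicle, none of the 8 AP-1 genes differed past the threshold (0 by edgeR, 0 by DESeq2 and 0 at an unadjusted p under 0.05, where 3562 of 10820 tested genes stood). This stood beside 9.86% of all tested genes called higher in the knockout-labelled line and 10.8% called lower. No AP-1 gene had ranges that did not overlap, beside 10.7% of all tested genes with higher and 11.4% with lower ranges. The log2 differences, knockout-labelled against wild type, ran from -0.23 for Fosl2 (95% interval -0.60 to 0.14) to 0.26 for Fosb (95% interval -0.24 to 0.76). Fos gave 0.21 (-0.30 to 0.73), Junb 0.13 (-0.19 to 0.45), Maff 0.13 (-0.23 to 0.48), Jun 0.07 (-0.13 to 0.27), Atf3 0.03 (-0.57 to 0.63) and Jund -0.03 (-0.16 to 0.11). The interval of Jund was narrow, and those of Fos, Fosb and Atf3 were wide. With Alb as a covariate 6 of these 8 signs turned, Fos to -0.56, while still no AP-1 gene passed. Alb was at 328 to 923 CPM in WT-Con and at 17.1 to 52.3 CPM in P2ry1KO-Con, so this covariate and the line cannot be told apart.

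With ivermectin, Fosl2, Fos and Maff were lower in the knockout-labelled line, 3 of 8 beside 13.9% of all tested genes called lower and 13.9% called higher. The 4 Fosl2 values of 22.9 to 30.3 CPM lay below the 4 wild-type values of 31.5 to 47.7 CPM, and the log2 difference was -0.66 (SE 0.161, edgeR adjusted p = 0.00215). Fosl2 was the one AP-1 gene whose ranges did not overlap, beside 12.7% of all tested genes with lower and 12.6% with higher ranges. Fos differed by -0.59 (SE 0.18, edgeR adjusted p = 0.0123), with means of 54.2 ± 18.8 CPM in P2ry1KO-IVM and 82.9 ± 25.4 CPM in WT-IVM (SD, n = 4). Maff differed by -0.41 (SE 0.148, edgeR adjusted p = 0.0348), with means of 50.5 ± 5.41 and 69.0 ± 19.7 CPM (SD, n = 4). WT-IVM replicate 1 was inside the knockout-labelled range for both genes. Fosb (-0.49), Junb (-0.31) and Jun (-0.22) had edgeR adjusted p-values of 0.057, 0.0572 and 0.059, and Jund (-0.08) and Atf3 (-0.23) had 0.365 and 0.536. All 8 values were negative, with a median of -0.36 beside -0.0004 for all tested genes. This comparison shares the WT-IVM libraries with the wild-type ivermectin comparison and with the test of the difference, so the 3 sets of values are not independent. Fosl2 kept its call in 18 of 19 alternatives and lost it at the 1.5-fold threshold. Maff lost its call in 8 of 20. Fos lost it at that threshold, with DESeq2 (adjusted p = 0.137) and without WT-IVM replicate 4 (edgeR adjusted p = 0.0557) or P2ry1KO-IVM replicate 1 (edgeR adjusted p = 0.0816). The summed hepatocyte levels of both ivermectin groups overlapped, and with Alb as a covariate 6 AP-1 genes passed.

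The genes most like Fos over the 16 libraries were sought among all tested genes outside the family, by Pearson correlation of log2 CPM. Among the leading ones were Btg2 (0.902), Ier2 (0.847), Egr1 (0.846) and Gem (0.832), which are immediate-early genes. Within the family, Fos was most like Junb (0.941) and Jun (0.901), then Maff (0.798), Fosb (0.594), Jund (0.524), Fosl2 (0.409) and Atf3 (0.226). With group means removed, Btg2 was at 0.859, Ier2 at 0.708, Gem at 0.706 and Egr1 at 0.60. In the family, Junb was at 0.844, Jun at 0.753 and Maff at 0.682. Fosl2 and Jund were at 0.19, Fosb at 0.14 and Atf3 at -0.16. The genes most like Atf3 were 1700054N08Rik (0.863), Cep290 (0.802), Gm6710 (0.801), Trim32 (0.795) and 1810026B05Rik (0.778), and Atf3 rests on 4 to 29 counts per library. All these values share the same libraries and their depth, and they are descriptions only.

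Around the family, 4 of 18 other tested immediate-early genes rose in wild-type cells with ivermectin, and the median log2 change of the 18 was 0.37. The 4 were Egr1 (1.53, edgeR adjusted p = 2.1e-09), Btg2 (0.70, edgeR adjusted p = 0.0036), Ier2 (0.87, edgeR adjusted p = 0.00766) and Nr4a1 (0.88, edgeR adjusted p = 0.0108). With Fos and Junb they were all 6 genes called higher among the 10820 tested, and with Alb as a covariate Egr1 alone of the 6 passed. Of the listed genes upstream or downstream of AP-1, only 10 of 22 AP-1 target genes and 8 of 15 other basic leucine zipper genes were tested. None of the tested genes in these lists was called in wild-type cells with ivermectin. There 0.0555% of all tested genes were called higher and 0.545% lower. By list, the calls were 0 of 17 MAP kinase pathway genes, 0 of 11 upstream factors such as Srf, the Elk proteins and Creb1, and 0 of 8 other basic leucine zipper genes. They were 0 of 10 AP-1 target genes, 0 of 10 genes of the Atf4 stress response and 0 of 9 heat shock genes. At an unadjusted p under 0.05 these lists held 0, 0, 1, 3, 2 and 1 genes, beside 563 of all 10820, and their medians ran from -0.05 to 0.09. With so few calls over all tested genes, 0 calls in lists of this size cannot show that they were unaffected. In the knockout-labelled line none of the 7 lists held a gene called by edgeR or DESeq2, while 820 of all 10820 tested genes had an unadjusted p under 0.05. At that level stood 3 of 18 immediate-early genes, 3 of 11 upstream factors, 2 of 17 MAP kinase pathway genes, 2 of 9 heat shock genes, 1 of 10 AP-1 target genes, 0 of 8 other basic leucine zipper genes and 0 of 10 Atf4 response genes. In the test of the difference 1 gene of the 7 lists was called, Egr1 at -1.22 (edgeR adjusted p = 0.000361). With vehicle Egr1 was already higher in the knockout-labelled line, by 0.67 (edgeR adjusted p = 0.000519). In that comparison 2 of 18 immediate-early genes were higher and 2 lower, beside 9.86% of all tested genes higher and 10.8% lower.

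**Figure D4:**
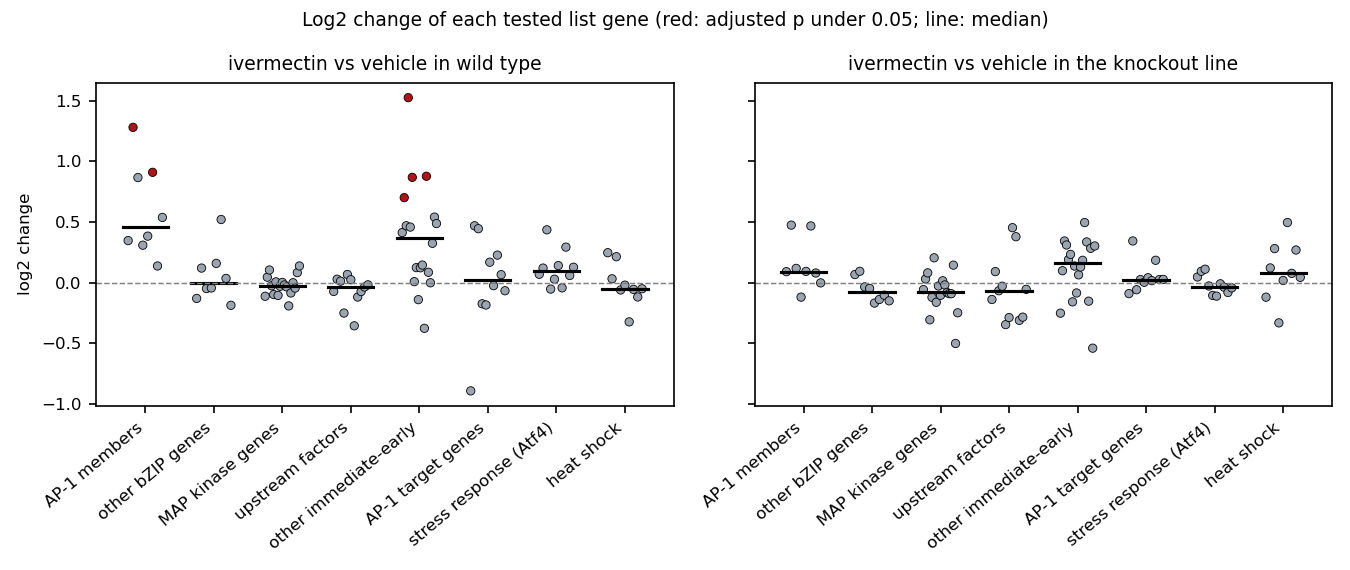
Log2 change with ivermectin (vertical axis) of every tested gene in the AP-1 family and 7 related lists, in wild-type cells on the left and in the knockout-labelled line on the right, with lines for medians and red for an edgeR adjusted p under 0.05. On the left 2 AP-1 genes and 4 other immediate-early genes are red, and on the right none is.

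The same lists were read between the lines with vehicle, where 9.86% of all tested genes were called higher and 10.8% lower. Of 17 MAP kinase pathway genes, 2 were higher and 3 lower in the knockout-labelled line. Mapk10, which encodes the Jun kinase JNK3, differed by -0.88 (edgeR adjusted p = 4.81e-05). Map2k3, a kinase of the p38 branch, was higher by 0.70 (edgeR adjusted p = 0.000272), and Map2k2, which encodes MEK2, by 0.27 (edgeR adjusted p = 0.0153). Of 11 upstream factors 5 were lower and 0 higher, led by Mef2a (-0.87, edgeR adjusted p = 0.000171) and Stat3 (-0.33, edgeR adjusted p = 0.00321). Of the 8 other basic leucine zipper genes, Atf2 was lower (-0.70, edgeR adjusted p = 0.000158) and the small Maf gene Mafk higher (0.73, edgeR adjusted p = 0.00701). Of 10 AP-1 target genes 2 were higher and 4 lower, led by Vegfa (-0.48, edgeR adjusted p = 2.26e-05) and Srxn1 (-0.52, edgeR adjusted p = 5.45e-05). Of the Atf4 stress response 1 of 10 genes was higher and 2 lower, and of the heat shock genes 1 of 9 was higher and 2 lower. No list was tested against the other genes, and 28 of 29 tested hepatocyte genes were lower in the same comparison. With Alb as a covariate, Stat3 and Vegfa passed and the other 7 genes just named did not. With ivermectin, beside 13.9% of all tested genes each way, the numbers were 3 higher and 4 lower of 17 MAP kinase pathway genes, 0 and 3 of 11 upstream factors, and 0 and 1 of 8 other basic leucine zipper genes. They were 2 and 5 of 10 target genes and 1 and 8 of 18 immediate-early genes, Dusp1 counting in both lists. In the Atf4 stress response they were 0 and 5 of 10, and among heat shock genes 2 and 2 of 9.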

How the data were processed

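RNA-seq of 16 BetaTC6 libraries was used, and human single-cell files were not used. Per the submitters' processing notes, bcl2fastq, STAR 2.7.2b, RSEM 1.3.3, DESeq2 1.32.0 and build mm10 were used, with no roles given. Whether counting used strand is not given in the sources used here, so reads of antisense genes could not be told apart. The whole-number count table deposited by the authors equals their RSEM expected counts rounded down (0 of 373264 values differ). Their deposited normalized signal is the counts over 1 size factor per library. RSEM TPM, deposited by the authors, served for levels between genes, and the deposited FPKM values were not used.

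Counts entered edgeR 4.0.16 in R 4.3.3 with limma 3.58.1 (filterByExpr at its minimum count, 10, and minimum total, 15, TMM factors, 1 coefficient per group over 16 libraries). CPM is scaled with TMM factors, and SEs come from the log2 change and its F value. Library totals of 893088 to 2013242 limit precision for genes with few counts. Replicate pairs differed by more than sampling noise (chi-squared per degree of freedom of 1.16 to 7.36). Named genes are the 9 members, up to 4 list genes past the threshold by smallest adjusted p, the 5 genes most like Fos and Atf3, and Alb, except that some genes this rule names are not reported here. The tested genes, lists and tests were chosen with earlier results of these data known, and the tests were checked on simulated data. Alternatives are in the closing section, with DESeq2 1.42.0 as another tool.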

Additional observations from a re-analysis of the deposited data

Results flagged for a closer look

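Of 32 groups of 4 libraries examined (8 genes in 4 groups), 4 held a library whose gap to the nearest other, divided by the group's range, was above Dixon's 95% critical value. Chance flags about 1 group in 20, or 1.6 of 32. Fosb in WT-Con replicate 4 was at 40.9 CPM, above 27.0 to 28.9 CPM in the other 3 libraries. Fosl2 in P2ry1KO-IVM replicate 2 was at 30.3 CPM, above 22.9 to 23.9 CPM. Jun in WT-Con replicate 3 was at 111 CPM, below 127 to 130 CPM. Jund in P2ry1KO-IVM replicate 3 was at 521 CPM, above 478 to 482 CPM. No library was flagged for more than 1 gene.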

How the results depend on the processing

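Over all alternatives, 846 values of single AP-1 genes were computed. Of these, 767 kept their sign and side of the threshold, 33 newly passed it, 17 lost it and 29 changed sign. In wild type, 2 AP-1 genes passed with ivermectin, 5 without a count filter, 0 with Alb as a covariate and 0 at a 1.5-fold threshold. When 1 library was left out, 2 to 5 passed (5 without WT-IVM replicate 1, 4 without replicate 2). With only the libraries compared, 3 passed, and with every library thinned to the smallest total, 3 passed. Fosb was called in both (edgeR adjusted p = 0.0412 and 0.0064), and in 5 of its 20 alternatives. In the knockout-labelled line the number was 0, and 1 without a filter (Junb, edgeR adjusted p = 0.00078). For the difference between lines it was 0, and 2 without a filter, Fos and Fosb. Between lines with ivermectin it was 3, against 1 with DESeq2, 5 without a filter, 6 with Alb as a covariate, 0 at a 1.5-fold threshold and 1 to 6 when 1 library was left out (6 and 5 without WT-IVM replicates 1 and 2, and 1 without WT-IVM replicate 4 or P2ry1KO-IVM replicate 1). The cause was not tested.

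Signs that changed were mostly those of values near 0. With Alb as a covariate, Fosl2 gave -0.052 in wild type with ivermectin and 0.022 for the difference between lines, and Maff gave 0.042 with ivermectin in the knockout-labelled line. Between lines with vehicle, that covariate gave -0.56 for Fos, -0.27 for Fosb, -0.12 for Jun, -0.37 for Junb, 0.11 for Jund and -0.16 for Maff. Jund there was 0.0053 without a filter. Maff in the knockout-labelled line was 0.027 in thinned libraries. Leaving out 1 library gave -0.038 to 0.28 for Fosb, -0.22 to 0.019 for Fosl2, -0.11 to 0.21 for Atf3 and -0.072 to 0.13 for Maff with ivermectin in that line. Between lines with vehicle it gave -0.070 to 0.036 for Jund, -0.19 to 0.23 for Atf3 and -0.0028 to 0.20 for Maff.

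The replicate numbers of the labels were not taken as pairs: correlations of same-numbered deviations ran from -0.05 to 0.14, with 2 of 16 over 0.1. In the 4 comparisons between groups, 4, 2, 6 and 4 of 8 libraries correlated best with their own number. With the replicate block 3 AP-1 genes passed for ivermectin in wild type, 0 in the knockout-labelled line, 0 between lines with vehicle, 5 with ivermectin and 0 for the difference, and Maff with ivermectin in the knockout-labelled line was 0.0015.

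Over all genes, 65 passed in wild type, against 140 without a filter, 7 with a mean of at least 50 counts, 1 with Alb as a covariate, 39 without the hepatocyte list and 100 without WT-IVM replicate 1. In the knockout-labelled line 0 passed, and 23 without a filter. Between lines 2240 passed with vehicle (403 with Alb as a covariate, 234 at 1.5-fold) and 3008 with ivermectin (1908 in thinned libraries, 185 at 1.5-fold). For the difference 24 passed, against 82 without a filter, 4 with a mean of at least 50 counts, 47 with the replicate block, 0 with Alb as a covariate, 6 without the hepatocyte list, 12 at 1.5-fold and 8 to 48 when 1 library was left out. Libraries of 893088 counts leave genes such as Atf3, with as few as 4 counts, with wide intervals.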
